A study of Medicago truncatula with 24 samples.

Results

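The small RNAs of shoots and roots were compared in A17, the wild-type line of the model legume Medicago truncatula, while a part of each root system was supplied with ample nitrogen. Members of the comparison are 3 shoot and 3 root libraries of the 24 libraries of the series, chosen by genotype, organ and nitrogen supply from the labels, with all 427 listed sequences in each. Of these sequences 327 had counts in at least 1 of the 6 libraries and 100 had none; 276 were seen in both organs, 30 in shoots alone and 21 in roots alone.

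Both groups carry no mutation that the labels name. The plants were grown on 0.5 mM KNO3, their roots were divided between a pair of compartments, and for the last 4 days before harvest at 4 weeks of age the local compartment held 10 mM NH4NO3 (N satiety) while the systemic compartment held no mineral nitrogen. By the series design the roots are those of the systemic compartment, so they were themselves without mineral nitrogen on a plant that had ample supply elsewhere; the label of a single library names only its organ and the local treatment. The rest of the series holds the same organs under local deficit (0.05 mM KNO3) and in the mutant cra2, a line with a changed CRA2 receptor kinase. The labels do not tell whether the 3 libraries of a group came from different plants, and the p-values therefore measure a spread between libraries that may be technical. The list holds small RNAs only, so no organ-defining messenger RNA could be used to check the organ labels.

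Plant microRNAs (miRNAs) are cut by the nuclease DCL1 from hairpin transcripts as a short duplex, of which the mature strand enters an Argonaute protein, mostly AGO1, and guides the cleavage of matching messenger RNAs, while the opposite arm is mostly lost. Many families are old, are shared among land plants, and act on transcription factors that set leaf shape, phase change, root branching and meristem identity; others follow the supply of copper, phosphate or nitrogen. Legumes add families of slightly longer miRNAs that trigger secondary small RNAs from disease-resistance genes. Some miRNAs, such as miR2111, move from the shoot to the root.

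The sequences on which the comparison turns are given 5′ to 3′ as the deposited files list them, with T for U and with the seed, bases 2 to 8, in capitals. They are the most abundant sequences of each organ, the strongest organ differences, and the forms of a family that went different ways. A form is one mature-arm sequence of a family, numbered by its counts in the 6 libraries.
miR159 form 1: tTTGGATTgaagggagctcta
miR159 form 2: aTTGGAGTgaagggagctcca
miR319 form 1: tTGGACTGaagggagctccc
miR156 form 1: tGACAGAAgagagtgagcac
miR156 form 2: tTGACAGAagatagagggcac
miR156 form 3: tTGACAGAagatagagagcac
miR156 opposite arm 1: gCTCTCTAgacttctgtcatc
miR172 form 1: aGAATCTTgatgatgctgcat
miR172 form 2: aGAATCCTgatgatgctgcag
miR4414 form 1: aGCTGCTGactcgttggttca
miR4414 opposite arm 1: aTCCAACGatgcgggagctgc
miR5559 form 1: tACTTGGTgaattgttggatc
miR398 form 1: tGTGTTCTcaggtcacccctt
miR398 opposite arm 1: gGAGTGACactgagaacacaag
miR166 form 1: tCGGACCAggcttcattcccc
miR396 form 1: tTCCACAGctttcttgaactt
miR396 form 2: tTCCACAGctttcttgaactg
miR160 form 1: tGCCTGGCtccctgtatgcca
miR160 form 2: tGCCTGGCtccctgaatgcca
miR167 form 1: tGAAGCTGccagcatgatctg
miR167 form 2: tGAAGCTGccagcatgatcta
miR164 form 1: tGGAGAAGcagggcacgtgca
miR164 form 2: tGGAGAAGcagggcacatgct
miR169 form 6: cAGCCAAGggtgatttgccgg
miR171 form 1: tGATTGAGtcgtgccaatatc
miR171 form 2: cGAGCCGAatcaatatcactc
miR171 form 3: tGATTGAGccgtgccaatatc
miR171 form 4: tGATTGAGccgtgccaatatt
miR171 form 5: tGATTGAGccgcgtcaatatc
miR171 form 6: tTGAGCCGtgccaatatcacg
miR171 opposite arm 1: cGATGTTGgtgaggttcaatc
miR5213 form 1: tACGTGTGtcttcacctctgaa

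One sequence, miR159 form 1, held most of the counts in both organs, and more in shoots. Its share of the library total was 84.8, 84.8 and 84% in shoots, against 72.9, 76.2 and 71.3% in roots, or 84.6 ± 0.464% and 73.5 ± 2.51% (SD, n = 3 each). The organs did not overlap. A library total here is the sum over the 427 listed sequences, so these are shares of the listed counts only. The widest Wilson 95% interval of one library ran from 72.8 to 72.9% (counting error only). Library totals were 3107281 to 3919811 counts in shoots and 1539333 to 1661422 in roots, but without this sequence 470812 to 626241 in shoots and 395135 to 472241 in roots, so that most of the difference in depth lay in one row. With the library total as the scale, every other sequence is pushed down in shoots. Differences are therefore given with TMM scaling, which takes the bulk of the sequences as its base, and for most results also with library totals and with totals that left out miR159 form 1. Over all tested sequences the median log2 difference, shoot minus root, was 0.05 with TMM, -0.57 with library totals, 0.20 with totals without miR159 form 1 and 0.62 with upper-quartile scaling, and differences are to be read against these medians. Levels are given in CPM, the field's usual rate of counts per library total, with TMM-scaled totals, so that they do not sum to the nominal total. TMM-scaled log2 CPM correlated at 0.985 to 0.992 across sequences within shoots and at 0.989 to 0.991 within roots, and at 0.855 to 0.876 between the organs, a description over 179 sequences that share their library totals.

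Among 179 sequences with enough counts to test, 105 (58.7%) differed between the organs in edgeR's quasi-likelihood test at an adjusted p under 0.05, of which 46 (25.7%) were higher and 59 (33%) lower in shoots. Without overlap between the 3 and 3 libraries were 115 (64.2%), 55 (30.7%) with shoots above and 60 (33.5%) with shoots below. Since more of the tested sequences were called than not, a call alone sets no family apart, and sizes are given throughout. The direction split followed the scale: 33 higher and 84 lower with library totals, 57 and 53 with totals without miR159 form 1, and 84 and 35 with upper-quartile scaling. With all 6 scalings tried, 67 sequences (37.4%) were called in one and the same direction, 32 higher (17.9%) and 35 lower (19.6%). Family sums hold both mature and opposite arms. Summed by family, 24 of 32 tested families were called, 12 in each direction, against 76 of 129 rows (58.9%) of the family table. That table also holds the unassigned sequences, and 27 of its rows (20.9%) were higher and 49 (38%) lower. The families miR156, miR172, miR398, miR2199, miR4414 and miR5559 were higher in shoots with all 6 scalings, and miR162, miR166, miR171, miR390, miR1507, miR1509, miR2089 and miR5232 lower. The calls of miR168, miR399, miR530, miR1510 and miR2118 were lost when some single library was left out.

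**Figure D1:**
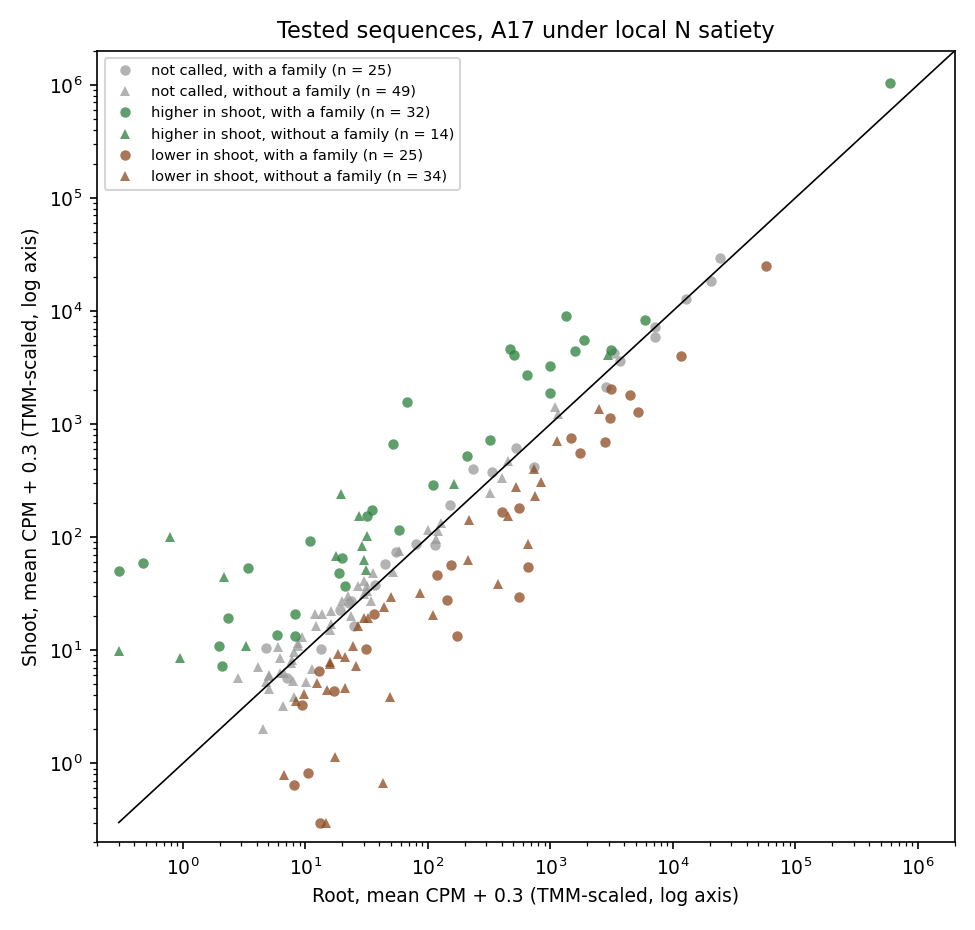
Mean TMM-scaled CPM of each of the 179 tested sequences in roots (x axis) and shoots (y axis), both log axes with 0.3 added; the line marks equal levels, circles are sequences with a miRNA family and triangles those without. The 46 sequences higher in shoots and the 59 lower lie on either side of the line, with miR159 form 1 alone at the upper right and 4 sequences without counts in one organ at the edges.

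Phase change gave the strongest family difference with a known role. miR156 targets SPL transcription factors and keeps shoots juvenile, and miR172 targets AP2-like factors that delay flowering. The miR156 sum stood at 14341, 14311 and 18306 CPM in shoots, against 1997, 2268 and 2433 CPM in roots. All shoot libraries lay several times above all root libraries. In whole organs, more cells that make a miRNA and more miRNA per cell cannot be told apart. The log2 difference was 2.81 ± 0.17 (SE; edgeR adjusted p = 3e-12). Library totals gave 2.19 and totals without miR159 form 1 gave 2.96 for miR156, and the call passed in each alternative run. miR172 had 4149.7, 3297 and 2985 CPM in shoots, against 1223, 1698 and 1314 CPM in roots, again without overlap. Its log2 difference was 1.30 ± 0.18 (SE; edgeR adjusted p = 1.7e-06). Library totals gave 0.70 and totals without miR159 form 1 gave 1.46. Of the 11 tested sequences of both families 8 were higher and 1 lower in shoots, against 25.7% and 33% over all tested. Their median log2 difference was 1.73, against 0.05 over all tested. The one lower sequence was miR172 form 2, at 182, 178 and 145 CPM in shoots, against 362, 435 and 407 CPM in roots. miR172 form 2 thus differed by -1.25 ± 0.21 (SE; edgeR adjusted p = 4.38e-05) on the log2 scale.

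Within miR156 the forms did not differ by the same amount. miR156 form 1, the 20-base form that held most of the sum, stood at 8262, 8129 and 10579 CPM in shoots, against 1268, 1306 and 1434 CPM in roots (2.75 ± 0.18 SE, edgeR adjusted p = 5.41e-10). miR156 form 2 stood at 4252, 4383 and 5141 CPM in shoots, against 357, 515 and 538 CPM in roots. miR156 form 2 thus differed by 3.29 ± 0.20 (SE; edgeR adjusted p = 2.6e-10) on the log2 scale. miR156 form 3, which shares its seed with form 2, stood at 261, 312 and 562 CPM in shoots, against 301, 357 and 339 CPM in roots, with overlapping organs, and had a log2 difference of 0.19 ± 0.26 (SE; edgeR adjusted p = 0.551). It made up 2.64 ± 0.730% of mature miR156 counts in shoots and 15.6 ± 0.860% in roots (SD, n = 3 each). The opposite arm 1 of miR156 had the largest difference of the family: 1455, 1362 and 1879.9 CPM in shoots, against 49.6, 63.5 and 90.4 CPM in roots. miR156 opposite arm 1 thus differed by 4.52 ± 0.26 (SE; edgeR adjusted p = 2.6e-10) on the log2 scale. Library totals gave 3.89 and totals without miR159 form 1 gave 4.68.

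Copper miRNAs spare copper by lowering the messages of copper proteins. The family sum of miR398, whose mature arm targets copper/zinc superoxide dismutases, was higher, at 3194, 5432 and 5304 CPM in shoots, against 1456, 1491 and 2034 CPM in roots. No shoot library fell into the root range, and shoot replicate 1 was the lowest of the shoot libraries. The log2 difference was 1.48 ± 0.21 (SE; edgeR adjusted p = 7.44e-06). Library totals gave 0.86 and totals without miR159 form 1 gave 1.64. The miR398 sum held both arms, with unscaled mature-arm counts of 3413, 6362 and 6728 in shoots, against 1704, 1876 and 2535 in roots. Opposite-arm counts were 4700, 8842 and 9417 in shoots, against 1083, 990 and 1877 in roots, so the sum is no level of the mature arm. The main mature sequence, miR398 form 1, had a smaller log2 difference of 0.92 with TMM. miR408, whose targets are plantacyanins and laccases, had 59.5, 75.4 and 53.9 CPM in shoots, against 50.2, 47.9 and 42.4 CPM in roots. Its log2 difference of 0.43 ± 0.25 (SE; edgeR adjusted p = 0.148) did not pass and turned to -0.18 with library totals. miR2119, which in legumes can share a precursor with miR398 and targets an alcohol dehydrogenase, had 207, 341 and 657 CPM in shoots, against 231, 186 and 283 CPM in roots. Its shoot libraries spread over the root range, and its log2 difference of 0.78 ± 0.37 (SE; edgeR adjusted p = 0.0984) did not pass. With library totals it was 0.14, but it passed with totals without miR159 form 1 (0.92, edgeR adjusted p = 0.0133), with upper-quartile scaling (1.34, 0.0313), in DESeq2 (0.81, adjusted p = 0.0434), with no count filter (0.83, 0.0238) and with all 24 libraries in the fit (1.05, 0.0224). It also passed without shoot replicate 1 (1.12, edgeR adjusted p = 4.78e-06), without shoot replicate 2 (0.91, 0.0436) or without root replicate 3 (0.90, 0.00191). With replicate number as a block it passed too (0.65, edgeR adjusted p = 0.0048). miR397, which targets laccases, had 0.787, 2.14 and 0.329 CPM in shoots, against 1.04, 0.520 and 0.461 CPM in roots, too few to test. By sequence, 3 of 5 tested copper members were higher and 0 lower, against 25.7% and 33% over all tested. Their median was 0.92, against 0.05 over all. The 3 higher sequences were all of miR398, its opposite arm among them, so the count describes that family alone.

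The organ-development families split. miR166, which targets the HD-ZIP III factors of leaf polarity, vascular tissue and root patterning, was lower, at 24635, 27962 and 34426 CPM in shoots, against 69677, 60909.7 and 72580.4 CPM in roots. The highest shoot library stayed well under the lowest root library. The log2 difference was -1.22 ± 0.14 (SE; edgeR adjusted p = 1.27e-07). Library totals gave -1.85 and totals without miR159 form 1 gave -1.07. miR166 form 1 was the largest sequence after miR159 form 1 in roots: of the counts other than miR159 form 1 it took 13.0 ± 1.79% in shoots and 27.1 ± 1.51% in roots (SD, n = 3 each). miR319, which targets TCP factors of leaf growth, was higher, at 10428, 8756 and 7889 CPM in shoots, against 4785, 5544 and 3968 CPM in roots. Its groups did not overlap, and its log2 difference of 0.92 ± 0.17 (SE; edgeR adjusted p = 5.06e-05) came to 0.32 with library totals and 1.09 with totals that left out the miR159 sequence, the first of which did not pass (edgeR adjusted p = 0.0867).

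miR159 acts on GAMYB factors, and its family sum, almost all of it form 1, had a log2 difference of 0.81 ± 0.10 (SE; edgeR adjusted p = 2.46e-07) with TMM and 0.20 with library totals. The 2 miR159 sequences went opposite ways. miR159 form 2 was not counted in shoots, with 0, 0 and 0 counts in shoots, against 42, 19 and 14 counts in roots, which is at least 53.6-fold lower in shoots per library total and at least 31.3-fold lower per total without form 1 (floor of 3 counts over the 3 shoot libraries). miR396, which targets growth-regulating factors and so limits cell division in leaves and root tips, was the largest family after miR159 in shoots and close in both organs at 55573, 51707 and 58909 CPM in shoots, against 55496, 49898 and 50419.6 CPM in roots. The ranges overlapped, and the log2 difference of 0.09 ± 0.12 (SE; edgeR adjusted p = 0.547) did not pass. With library totals it was -0.53 (edgeR adjusted p = 4.12e-05) and with totals without miR159 form 1 0.25 (0.0294). Its forms 1 and 2 share a seed. Of the counts other than miR159 form 1, miR396 form 1 took 15.2 ± 1.95% in shoots and 11.3 ± 0.540% in roots, and form 2 took 9.71 ± 2.64% in shoots and 9.59 ± 1.62% in roots (SD, n = 3 each). miR171, on GRAS factors, was lower as a sum and is taken up with its forms. In the list 9 of 22 tested sequences were higher and 8 lower, at a median log2 difference of -0.07, against 46 and 59 of 179 over all.

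**Figure D2:**
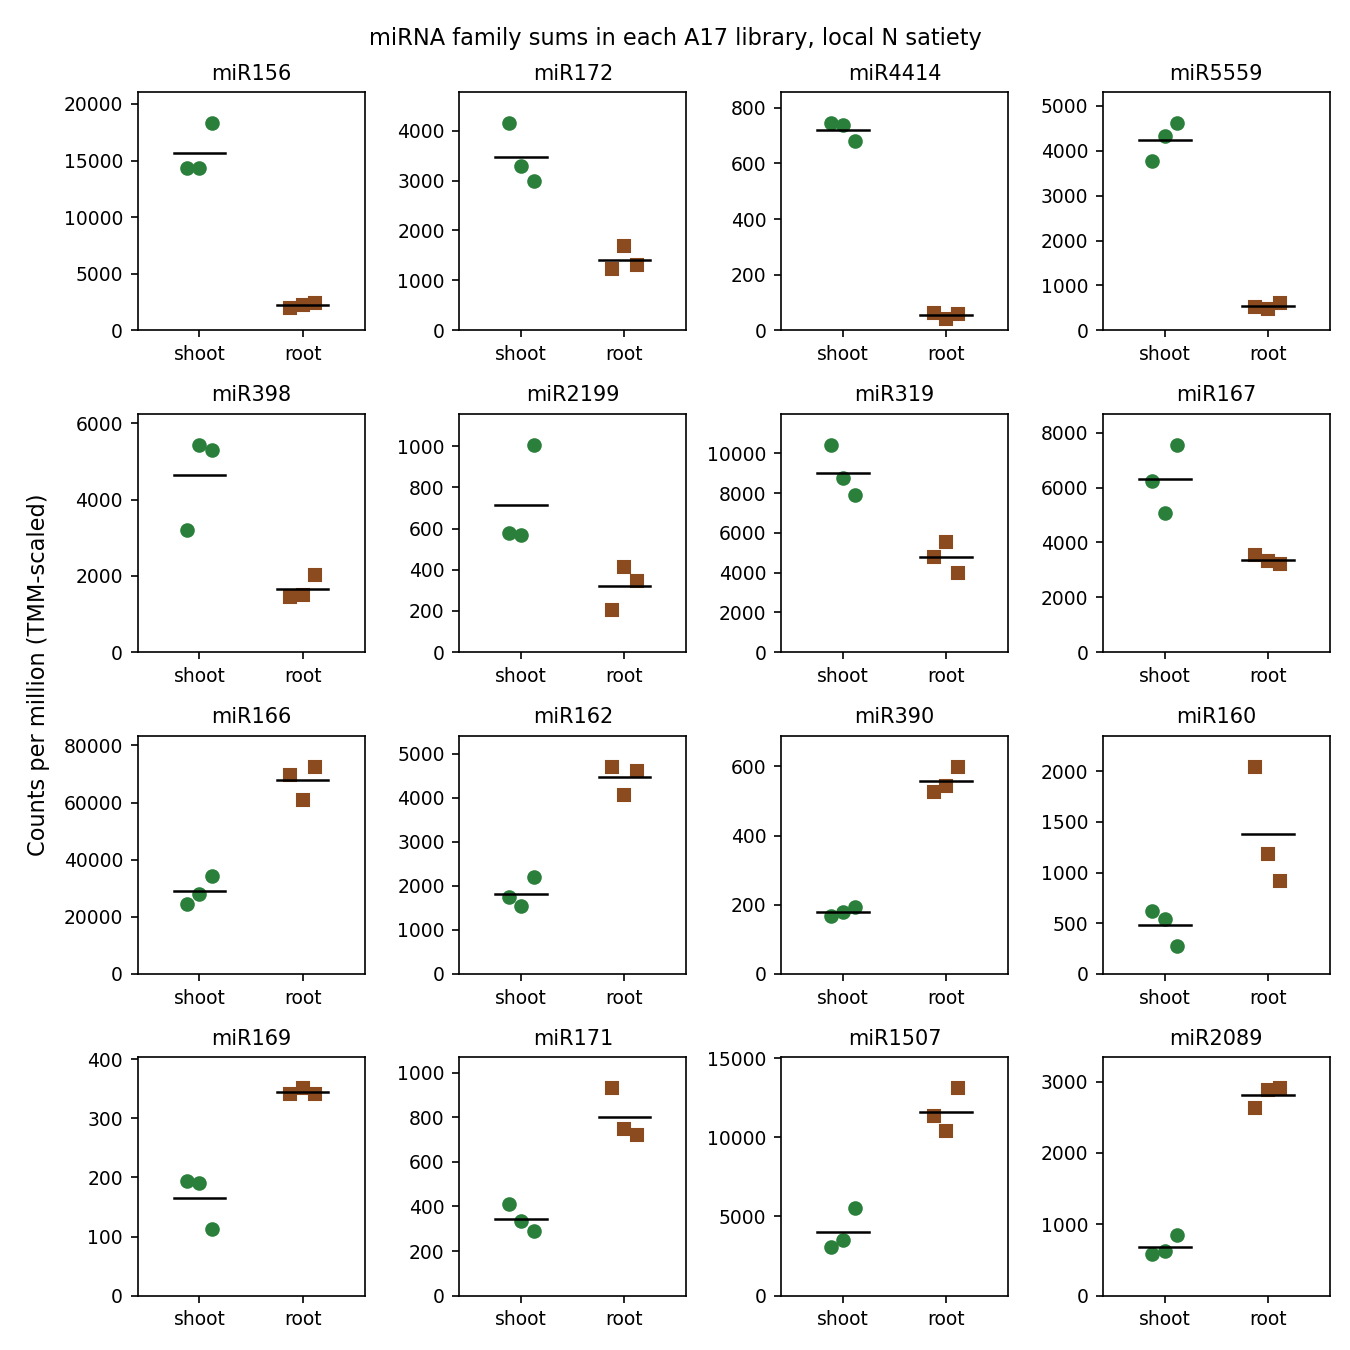
TMM-scaled CPM (y axis, from 0) of 16 miRNA family sums in the 3 shoot libraries (circles, left) and the 3 root libraries (squares, right) of A17 under local N satiety; bars are group means. The upper 8 families are higher in shoots and the lower 8 are lower. Only called families without overlap between the 3 and 3 libraries are shown, so the absence of overlap in the 16 panels is by choice. Tested families with overlap, such as miR164, miR396 and miR5213, are left out. Over all 179 tested sequences, 115 (64.2%) did not overlap.

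Auxin-related families also parted. miR160 represses a set of auxin response factors and stood lower, at 619, 544 and 277 CPM in shoots, against 2046, 1188 and 916 CPM in roots. Root replicate 1 was the highest and shoot replicate 3 the lowest, without overlap, and the log2 difference was -1.53 ± 0.35 (SE; edgeR adjusted p = 0.0043). Library totals gave -2.13 and totals without miR159 form 1 gave -1.34. Upper-quartile scaling gave -0.99, which did not pass (edgeR adjusted p = 0.0894). miR390 directs the making of tasiRNAs from TAS3, which restrain other auxin response factors. It was lower, at 167, 179 and 193 CPM in shoots, against 527, 543 and 599 CPM in roots, and the spread within either organ was small beside the gap. Its log2 difference was -1.63 ± 0.19 (SE; edgeR adjusted p = 1.67e-07). Library totals gave -2.25 and totals without miR159 form 1 gave -1.47. miR167, on auxin response factors of flower and root growth, was higher, at 6254, 5088 and 7554 CPM in shoots, against 3538, 3329 and 3227 CPM in roots. miR167 thus differed by 0.90 ± 0.17 (SE; edgeR adjusted p = 6.44e-05) on the log2 scale. Library totals gave 0.28 and totals without miR159 form 1 gave 1.06, the first of which did not pass (edgeR adjusted p = 0.136). miR164, on NAC factors that mark organ boundaries, had 3660.3, 3464 and 3671 CPM in shoots, against 3656, 3667 and 3845 CPM in roots, with overlap, and a log2 difference of -0.05 ± 0.15 (SE; edgeR adjusted p = 0.838). That value had no stable sign, being -0.67 with library totals and 0.11 with totals that left out the miR159 sequence. miR393, on auxin receptors, was too rare to test, with 0.394, 1.43 and 1.31 CPM in shoots, against 1.57, 1.56 and 1.38 CPM in roots. Among 8 tested sequences of this list 2 were higher and 4 lower, against 25.7% and 33% over all tested. Their median was -0.89, against 0.05 over all.

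Both families that act on the small RNA machinery were lower in shoots. miR162, which targets DCL1, had 1737, 1547 and 2188 CPM in shoots, against 4704, 4055 and 4614 CPM in roots. Roots held more than shoots in every library, at a log2 difference of -1.29 ± 0.17 (SE; edgeR adjusted p = 9.06e-07). Library totals gave -1.92 and totals without miR159 form 1 gave -1.13. miR168, which targets AGO1, had 7347, 7276 and 9192 CPM in shoots, against 9355, 9805 and 11726 CPM in roots and a much smaller log2 difference of -0.38 ± 0.16 (SE; edgeR adjusted p = 0.0454). This call was weak: it was lost without shoot replicate 1 (-0.30, edgeR adjusted p = 0.135), shoot replicate 2 (-0.28, 0.177), root replicate 2 (-0.41, 0.0775) or root replicate 3 (-0.33, 0.173), and the sign turned with upper-quartile scaling (0.19). It was also lost with RLE scaling (-0.37, edgeR adjusted p = 0.0671), with totals without miR159 form 1 (-0.22, 0.15) and in DESeq2 (adjusted p = 0.0993). With library totals it was -1.00. Of 3 tested sequences 2 were lower and 0 higher, at a median of -0.64, against 33% lower, 25.7% higher and a median of 0.05 over all tested.

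Triggers of secondary small RNAs, most of which act on NB-LRR disease-resistance messages, went both ways. miR1507 was lower, at 3099, 3501 and 5538 CPM in shoots, against 11328, 10416 and 13088 CPM in roots. miR1507 thus differed by -1.52 ± 0.20 (SE; edgeR adjusted p = 3.02e-06) on the log2 scale. Library totals gave -2.15 and totals without miR159 form 1 gave -1.37. The highest shoot library, replicate 3, stayed under every root library. miR1509 was lower too, at 62.6, 54.3 and 52.6 CPM in shoots, against 96.1, 191 and 178 CPM in roots. miR1509 thus differed by -1.46 ± 0.26 (SE; edgeR adjusted p = 5.2e-05) on the log2 scale. Library totals gave -2.07 and totals without miR159 form 1 gave -1.30. miR2118 and miR1510 were higher with TMM scaling, at 8374 ± 756 CPM in shoots and 5952 ± 402 CPM in roots for miR2118 and 4556 ± 171 CPM in shoots and 3401 ± 207 CPM in roots for miR1510 (SD, n = 3 each). Their log2 differences of 0.49 ± 0.15 (SE; edgeR adjusted p = 0.00794) and 0.42 ± 0.15 (SE; edgeR adjusted p = 0.0237) turned to -0.12 and -0.20 with library totals and were 0.65 and 0.59 with totals without miR159 form 1. The miR2118 call was lost without root replicate 1 (0.41, edgeR adjusted p = 0.106) or root replicate 3 (0.43, 0.0781). That of miR1510 was lost without root replicate 1 (0.37, 0.166), root replicate 2 (0.38, 0.112) or root replicate 3 (0.40, 0.118). miR5213, on resistance genes of the TIR class, was among the 5 most abundant sequences of both organs. It had 14805, 12270.2 and 11291 CPM in shoots, against 14087, 13468 and 11027 CPM in roots, with overlap (-0.01 ± 0.15 SE, edgeR adjusted p = 0.966). In this list 2 of 7 tested sequences were higher and 2 lower, at a median of 0.37, against 25.7% higher, 33% lower and 0.05 over all tested.

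Among families tied to nutrients and to nodulation, miR169, which targets NF-YA factors, was lower, at 194, 189.7 and 113 CPM in shoots, against 342, 351 and 342 CPM in roots. The groups did not overlap, and the log2 difference was -1.06 ± 0.22 (SE; edgeR adjusted p = 0.000305). Library totals gave -1.67 and totals without miR159 form 1 gave -0.88. With upper-quartile scaling it was -0.50, which did not pass (edgeR adjusted p = 0.0537). The miR169 sum held both arms, with unscaled mature-arm counts of 436, 444 and 255 in shoots, against 420, 404 and 383 in roots. Opposite-arm counts were 57, 87 and 88 in shoots, against 234, 270 and 358 in roots. By sequence 4 of 7 tested miR169 members were lower and 0 higher, against 33% and 25.7% over all tested. Their median was -1.65, against 0.05 over all. miR169 form 6 was almost absent from shoots, at 1, 0 and 2 counts in shoots, against 13, 21 and 12 counts in roots. The ratio of counts per total, roots over shoots, was 32.9 (exact 95% counting interval 10.6 to 165), or 19.2 (6.17 to 96.5) without miR159 form 1. miR2111, which is made in shoots, moves to roots and there lowers the nodulation repressor TML, had 309, 289 and 398 CPM in shoots, against 209, 231 and 278 CPM in roots. Shoot libraries lay above root libraries without overlap, but the log2 difference of 0.47 ± 0.21 (SE; edgeR adjusted p = 0.0559) did not pass and was -0.16 with library totals and 0.62 with totals that left out the miR159 sequence. The last of these passed (edgeR adjusted p = 0.0173), as did the TMM value without shoot replicate 1 (0.54, 0.0364). The miR2111 sum also passed with upper-quartile scaling (1.04, 7.73e-05), no count filter (0.51, 0.0488), at least 10 CPM in 3 libraries (0.50, 0.0354) and replicate number as a block (0.47, 0.0475). With RLE scaling (0.47, 0.0575) and with TMM without miR159 form 1 (0.44, 0.0784) it did not pass. Most of the miR2111 sum was opposite arm. The mature share was 36.8, 42.0 and 28.3% in shoots, against 18.8, 31.5 and 22.4% in roots. The only mature sequence had 289, 339 and 343 counts in shoots, against 75, 140 and 135 in roots. It was called higher in shoots with TMM, at a log2 difference of 0.99. By sequence 2 of 6 tested miR2111 sequences were higher and 0 lower, at a median of 0.22, and 1 of 2 tested miR399 sequences was lower, at a median of -0.81, against 25.7% higher, 33% lower and a median of 0.05 over all tested. miR399, a shoot-made signal of phosphate lack that targets PHO2, was low in both organs at 28.3, 34.7 and 34.2 CPM in shoots, against 52.2, 42.1 and 52.6 CPM in roots, without overlap and lower in shoots (-0.59 ± 0.25 SE, edgeR adjusted p = 0.0454). That call was lost in each of the 6 fits with 1 library left out, at log2 differences of -0.69 to -0.49 and edgeR adjusted p of 0.0523 to 0.14, with upper-quartile scaling (-0.040, 0.893) and with totals without miR159 form 1 (-0.43, 0.15). Library totals gave -1.22. miR395, on sulfate assimilation, had 2.76, 1.43 and 0.986 CPM in shoots, against 1.04, 3.64 and 1.38 CPM in roots and was not tested.

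Some of the largest differences fell on families outside the lists above, for which no role is given here. miR4414 had the largest family difference, at 745, 737 and 681 CPM in shoots, against 63.7, 41.1 and 58.6 CPM in roots. No root library came near the shoot range. The log2 difference was 3.72 ± 0.22 (SE; edgeR adjusted p = 3e-12). Library totals gave 3.10 and totals without miR159 form 1 gave 3.90. Both of its strands were higher in shoots, form 1 by 3.70 ± 0.25 (SE; edgeR adjusted p = 5.66e-10) and the opposite arm by 4.05 ± 0.41 (SE; edgeR adjusted p = 1.28e-07). miR5559 followed at 3780.4, 4325 and 4615 CPM in shoots, against 528, 481 and 621 CPM in roots. miR5559 thus differed by 2.96 ± 0.18 (SE; edgeR adjusted p = 3e-12) on the log2 scale. Library totals gave 2.34 and totals without miR159 form 1 gave 3.13. miR2199 was higher too, at 577, 567 and 1007 CPM in shoots, against 204, 415 and 344 CPM in roots and a log2 difference of 1.16 ± 0.27 (SE; edgeR adjusted p = 0.0018). Library totals gave 0.54 and totals without miR159 form 1 gave 1.29. Lower in shoots were miR2089, at 577, 629 and 856 CPM in shoots, against 2630.3, 2884 and 2904 CPM in roots, and miR5232. miR5232 had 935, 1155 and 1316 CPM in shoots, against 2879, 3317 and 2997 CPM in roots. Neither overlapped between organs, and their log2 differences were -2.03 ± 0.18 (SE; edgeR adjusted p = 2.52e-09) and -1.43 ± 0.17 (SE; edgeR adjusted p = 2.46e-07). Library totals gave -2.65 and totals without miR159 form 1 gave -1.88 for miR2089. Library totals gave -2.05 and totals without miR159 form 1 gave -1.28 for miR5232. miR530 was rare, at 19.7, 15.4 and 4.93 CPM in shoots, against 5.22, 6.76 and 4.61 CPM in roots, with overlap and a log2 difference of 1.25 ± 0.44 (SE; edgeR adjusted p = 0.0226) that was lost without shoot replicate 1 (0.88, edgeR adjusted p = 0.0651) or with library totals (0.65, 0.186). miR2086 and miR2643 did not pass, at 0.06 ± 0.18 and 0.35 ± 0.22 (edgeR adjusted p = 0.838 and 0.179); both turned negative with library totals.

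**Figure D3:**
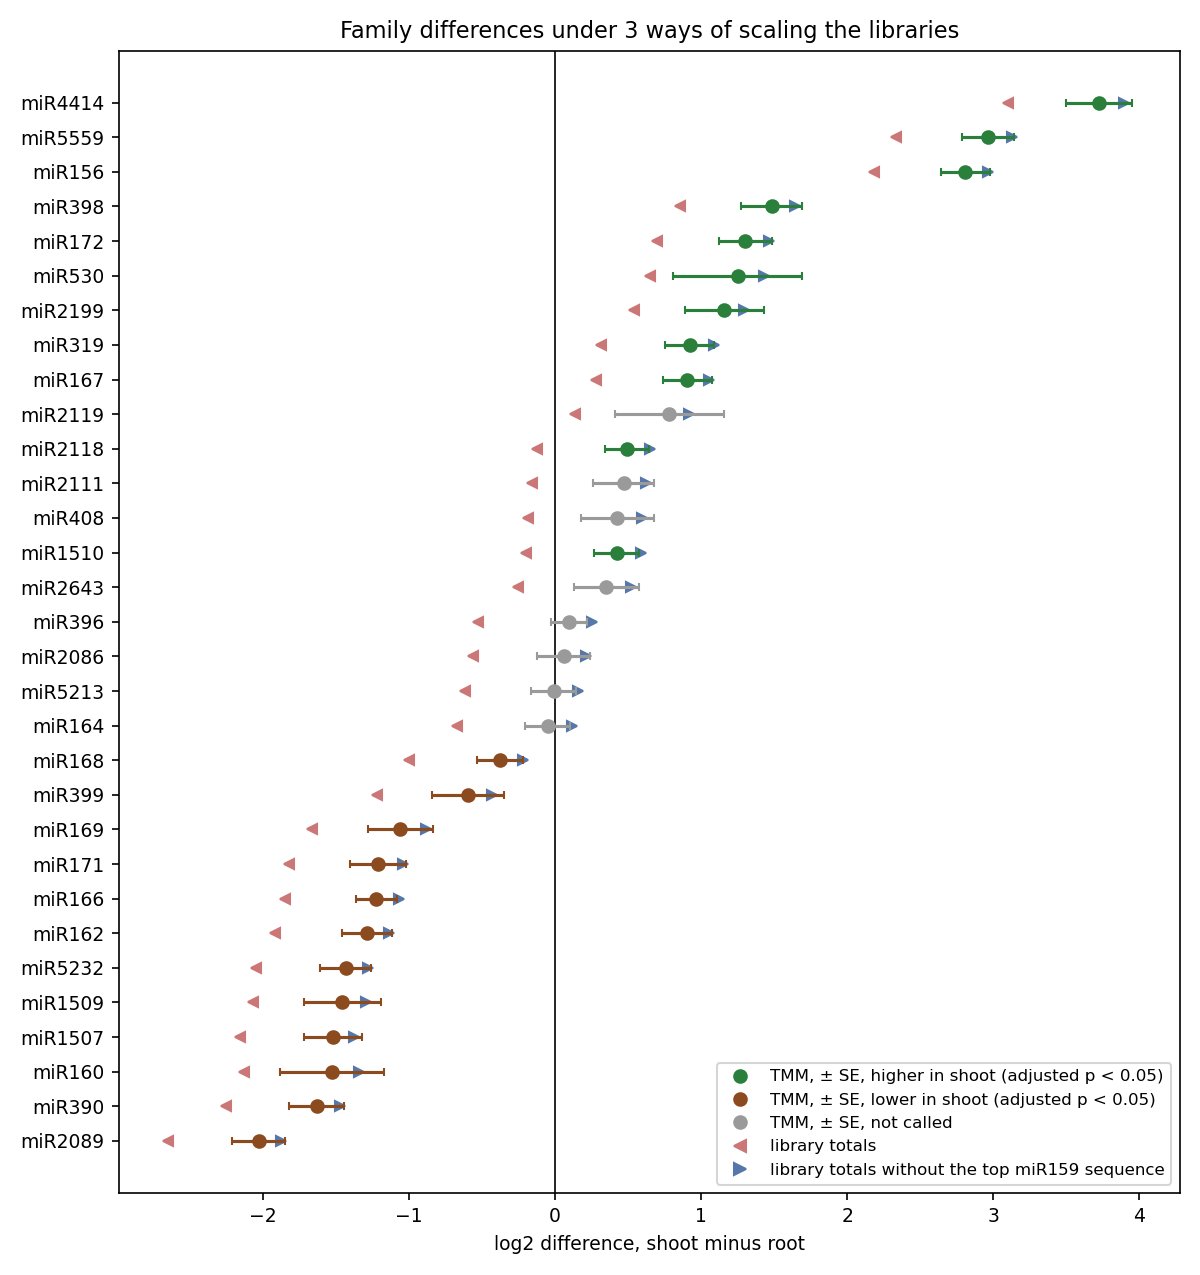
Log2 difference, shoot minus root (x axis), of the 31 tested families other than miR159 (y axis): circles with bars are TMM values ± SE, left-pointing triangles use library totals and right-pointing triangles totals without miR159 form 1. miR4414 (3.72), miR5559 (2.96) and miR156 (2.81) lead, miR2089 (-2.03) is lowest, and the triangles show that leaving miR159 form 1 in the total moves every family to the left by a like amount.

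Sums hide opposite organ differences of forms. miR171, whose targets are GRAS factors, was lower as a family, at 411, 336 and 289 CPM in shoots, against 929.9, 748 and 721 CPM in roots. miR171 thus differed by -1.21 ± 0.19 (SE; edgeR adjusted p = 1.09e-05) on the log2 scale. Library totals gave -1.82 and totals without miR159 form 1 gave -1.04. The miR171 sum held both arms. Unscaled mature-arm counts were 945, 875 and 802 in shoots, against 603, 419 and 437 in roots. Opposite-arm counts were 100, 64 and 77 in shoots, against 1177, 1019 and 1127 in roots. The mature arms as a sum were not tested. Forms 3 and 4 of miR171 were almost absent from roots. miR171 form 4 had 167, 121 and 120 counts in shoots, against 0, 0 and 0 counts in roots, at least 63.4-fold higher in shoots per library total and at least 109-fold higher per total without miR159 form 1 (floor of 3 counts over the 3 root libraries). miR171 form 3 had 204, 184 and 93 counts in shoots, against 0, 1 and 0 counts in roots. The ratio of counts per total was 224 (exact 95% counting interval 40.1 to 8876), or 384 (68.6 to 15206) without miR159 form 1. miR171 form 1 was also higher in shoots, at 156, 155 and 154 CPM in shoots, against 30.3, 40.6 and 24 CPM in roots (2.30 ± 0.26 SE, edgeR adjusted p = 6.01e-07).

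miR171 form 2 went the other way. Its bases are those of the shifted form that in Medicago is known to act on NSP2, a GRAS factor needed for root symbioses. It had 16.5, 13.6 and 9.20 CPM in shoots, against 240.3, 139 and 142 CPM in roots, so that each root library lay far above each shoot library, at a log2 difference of -3.73 ± 0.32 (SE; edgeR adjusted p = 1.38e-08). Library totals gave -4.35 and totals without miR159 form 1 gave -3.56. Its share of the mature miR171 counts was 4.44, 4.34 and 3.49% in shoots, against 76.3, 64.0 and 70.5% in roots. miR171 form 5, which shares its seed with forms 1, 3 and 4, had 25.6, 19.3 and 17.1 CPM in shoots, against 38.7, 36.9 and 33.2 CPM in roots (-0.81 ± 0.27 SE, edgeR adjusted p = 0.014). The opposite arm 1 had 39.4, 22.9 and 25.3 CPM in shoots, against 615, 530 and 519.6 CPM in roots, the largest miR171 sequence of roots, at a log2 difference of -4.25 ± 0.26 (SE; edgeR adjusted p = 2.6e-10). With the ends offset by 2 bases it pairs best with form 6, at 17 of 19 positions (A with T, G with C and G with T). At that offset it pairs at no more than 7 of 19 with any other mature form. With other offsets allowed, the best pairing with a mature form had 16 A-T or G-C pairs, 3 G-T pairs and 1 unpaired position. Pairing therefore does not settle which form is its partner. miR171 form 6 was higher, at 27.6, 16.1 and 13.1 CPM in shoots, against 4.18, 0.520 and 1.38 CPM in roots (3.20 ± 0.49 SE, edgeR adjusted p = 1.68e-05). Form 6 and the opposite arm 1 thus differed between the organs in opposite directions. No locus was assigned to either strand.

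Other families also differed in make-up between the organs. miR160 form 2 had 67.3, 59.7 and 34.8 CPM in shoots, against 896, 583 and 473 CPM in roots. miR160 form 2 thus differed by -3.59 ± 0.30 (SE; edgeR adjusted p = 9.55e-09) on the log2 scale. Form 1, with the same seed, had 546, 478 and 234 CPM in shoots, against 1148, 605 and 440.3 CPM in roots and -0.80 ± 0.35 (SE; edgeR adjusted p = 0.0607). Form 2 thus took 11.7 ± 1.12% of mature miR160 counts in shoots and 48.2 ± 4.02% in roots (SD, n = 3 each). For miR167 the forms parted in sign. Its form 1 had 5592, 4417 and 6644 CPM in shoots, against 1987, 1802 and 1869 CPM in roots (1.56 ± 0.18 SE, edgeR adjusted p = 7.36e-07). In contrast form 2 had 662, 670.3 and 909 CPM in shoots, against 1549, 1526 and 1358 CPM in roots (-0.98 ± 0.19 SE, edgeR adjusted p = 0.000186). Form 2 made up 10.6, 13.2 and 12% in shoots, against 43.8, 45.9 and 42.1% in roots of mature miR167 counts. In miR172, form 1 took 94.7 ± 0.588% of mature counts in shoots and 70.4 ± 3.05% in roots, at log2 differences of 1.73 ± 0.20 (SE; edgeR adjusted p = 6.41e-07) for form 1 and -1.25 for form 2. miR319 form 1, the shorter of its main forms, took 50.4 ± 1.02% in shoots and 66.6 ± 2.83% in roots. In miR164 nearly all counts were form 1, and form 2 was counted almost only in roots, at 4, 0 and 0 counts in shoots, against 25, 21 and 15 counts in roots (-4.27 ± 0.72 SE, edgeR adjusted p = 4.38e-05). The rule by which reads with a mismatch were assigned was not stated, so shares of near-identical forms depend on the counting.

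**Figure D4:**
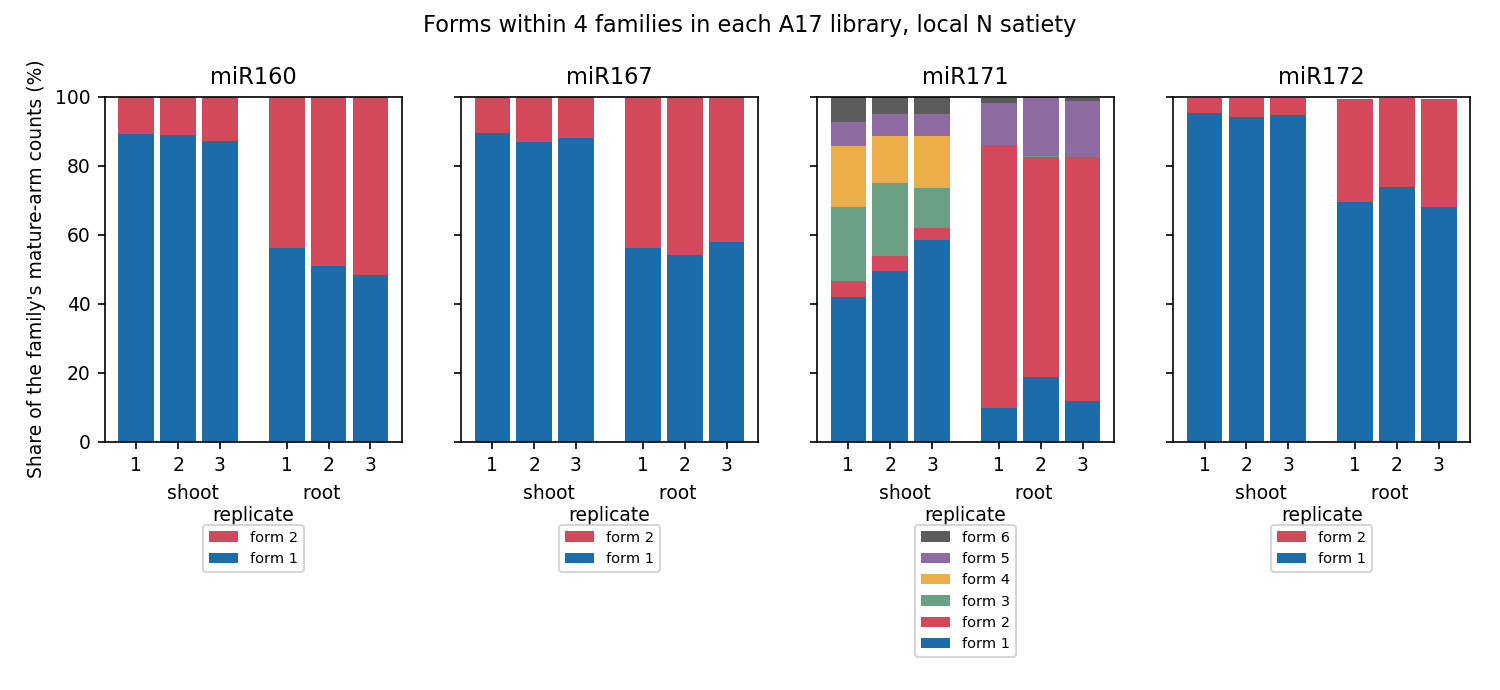
Share of a family's mature-arm counts (y axis, %) held by each form in each library, shoots left and roots right, for miR160, miR167, miR171 and miR172; forms that never reach 1% are left out. In every family each shoot library differs in make-up from each root library, most of all miR171, where form 2 holds 3.49 to 4.44% in shoots and 64.0 to 76.3% in roots.

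Of 19 seeds held by 2 or more tested sequences (45 sequences in all), 8 had 2 or more called sequences. Of these 8, 6 had calls in one direction and 2 had calls in both: GAAGCTG of miR167 and GATTGAG of miR171, where 3 sequences were higher and 1 lower. The 3 miR166 sequences with seed CGGACCA were all lower in shoots (log2 -2.0 to -1.21), and the 3 miR319 sequences with seed TGGACTG all higher (0.52 to 1.49). Over all 179 tested sequences 46 were higher and 59 lower, and agreement within a seed was not tested against this split.

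The balance of the duplex arms was compared in 18 families that had an opposite arm and at least 50 counts in each library. The mature share of the family sum did not overlap between the organs in 13 of them (72.2%), with shoots above in 7 and below in 6. For miR171 the mature share was 90.4, 93.2 and 91.2% in shoots, against 33.9, 29.1 and 27.9% in roots, so that the opposite arm led in roots. In miR169 it was 88.4, 83.6 and 74.3% in shoots, against 64.2, 59.9 and 51.7% in roots, and in miR2086 96.4, 95.9 and 88% in shoots, against 82.0, 85.3 and 77.9% in roots. miR398 ran the other way, with a mature share of 42.1, 41.8 and 41.7% in shoots, against 61.1, 65.5 and 57.5% in roots: its opposite arm 1 had a log2 difference of 2.06 ± 0.24 (SE; edgeR adjusted p = 6.41e-07) and form 1 of 0.92 ± 0.22 (SE; edgeR adjusted p = 0.00126). miR156 had 89.2, 89.7 and 89.0% in shoots, against 96.6, 96.1 and 95.1% in roots. The exact two-sided permutation p was 0.1 for each of the 13, the smallest that 3 against 3 libraries can give, so no arm share could pass 0.05. A family's arms can come from several loci, and a share mixes them.

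Sequences without a family made up 97 of the 179 tested; 14 were higher and 34 lower in shoots, at a median log2 difference of -0.06, against 32 higher and 25 lower of 82 with a family. Those with the largest differences, or counted in every library of one organ with at least 10 counts in each and in none of the other, are given by their bases, numbered here for reference, with bases 2 to 8 in capitals.
unassigned 1: cTTTTCACtttcgaacgggtg
unassigned 2: gGAAAACAtgaatgtcgggtg
unassigned 3: tTCGGGTTgataatattttctt
unassigned 4: aAAAGAATactcatacataacatt
unassigned 5: tGTGCATCttgaacaatggtat
unassigned 6: tGTAGAAAaaacaaagggcaa
unassigned 7: tAGAGATTtgtttaacagcca
unassigned 8: tCTCAACAggacggatcacta
unassigned 9: aTGGGATCctgttggtgggttac
unassigned 10: cCAAGGAAatagatatccagc
unassigned 11: tGGATTTCgtatttctttggta
unassigned 12: tATTGCACtcatcttccatggc

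Counted in shoots alone were unassigned 1 and 12. Unassigned 1 had 28, 22 and 29 counts in shoots, against 0, 0 and 0 counts in roots (at least 12.3-fold higher per library total, 21-fold without miR159 form 1). Unassigned 12 had 12, 20 and 25 counts in shoots, against 0, 0 and 0 counts in roots (at least 8.86-fold and 15.2-fold). It fell under the count filter and was not tested. Counted in roots alone was unassigned 6, with 0, 0 and 0 counts in shoots, against 29, 21 and 37 counts in roots, at least 62.2-fold lower in shoots per library total and 36.3-fold without miR159 form 1. These bounds use 3 counts over the organ without counts. Nearly specific to one organ were unassigned 2 and 7. Unassigned 2 had 305, 297 and 220 counts in shoots, against 1, 0 and 2 counts in roots, a ratio of 128 per total (exact 95% counting interval 43.6 to 621), or 219 (74.6 to 1063) without miR159 form 1. Unassigned 7 had 2, 0 and 1 counts in shoots, against 118, 69 and 64 counts in roots, 179 times lower per total in shoots (60.7 to 876), or 105 times (35.4 to 511) without miR159 form 1.

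Higher in shoots with counts in every library of both organs were unassigned 3, 4 and 5. Unassigned 3, of 22 bases, had 65.0, 39.7 and 26.9 CPM in shoots, against 1.57, 2.60 and 1.38 CPM in roots (4.54 ± 0.44 SE, edgeR adjusted p = 7.18e-08). Unassigned 4, of 24 bases, had 219.7, 262 and 235 CPM in shoots, against 17.2, 31.7 and 8.76 CPM in roots (3.64 ± 0.35 SE, edgeR adjusted p = 5.31e-08). The rare unassigned 5 differed by 3.52 ± 0.60 (SE; edgeR adjusted p = 4.97e-05) on the log2 scale. Unassigned 4 alone held 45.4% of the counts of 24-base sequences in shoots; in roots no 24-base sequence held over 11.1%. Unassigned 8, 9, 10 and 11 were lower in shoots. Unassigned 11 had 47.2, 34.7 and 31.9 CPM in shoots, against 411, 383 and 328 CPM in roots (-3.30 ± 0.25 SE, edgeR adjusted p = 2.91e-09). Unassigned 9, of 23 bases, had 5.12, 3.93 and 1.64 CPM in shoots, against 47.5, 48.4 and 49.3 CPM in roots (-3.77 ± 0.35 SE, edgeR adjusted p = 3.62e-08). The rare unassigned 8 and 10 differed by -4.27 ± 0.43 (SE; edgeR adjusted p = 1.1e-07) and -3.59 ± 0.67 (SE; edgeR adjusted p = 0.000132).

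By length, 21-base sequences held 96.4 ± 0.0193% in shoots and 94.9 ± 0.288% in roots of all counts (SD, n = 3 each), but without miR159 form 1 the order turned, to 76.6 ± 0.686% in shoots and 80.7 ± 0.766% in roots. Sequences of 20 bases, among them miR156 form 1, held 7.11 ± 0.208% in shoots and 2.13 ± 0.263% in roots of the counts without miR159 form 1, and 22-base sequences 16.0 ± 0.736% in shoots and 17 ± 0.495% in roots. Of all counts, the 22-base share was 2.47 ± 0.0576% in shoots and 4.50 ± 0.299% in roots, without overlap. Sequences of 24 bases held few of the listed counts, at 0.278 ± 0.0340% in shoots and 0.129 ± 0.00870% in roots without miR159 form 1. Among counts without any family sequence they were 3.71 ± 0.150% in shoots and 1.62 ± 0.0391% in roots. All these shares are of counts on the listed sequences, 267 of which have 21 bases and 60 have 24. The origin of the list was not stated, so the shares do not describe all small RNAs of an organ. Without unassigned 4, the 24-base share of the counts without miR159 form 1 was 0.153 ± 0.0252% in shoots and 0.120 ± 0.00323% in roots. The organs did not overlap in these shares except for 22 bases without miR159 form 1, where the exact two-sided permutation p was 0.2; without overlap it is 0.1, the smallest possible. By sequence, 34 of 131 tested 21-base sequences were higher in shoots and 48 lower, 5 and 8 of 21 with 22 bases, 4 and 0 of 6 with 20 bases, and 2 and 2 of 19 with 24 bases, against 25.7% higher and 33% lower over all tested. Of 19 tested sequences that begin with C, 2 were higher and 10 lower in shoots, at a median log2 difference of -0.60 against 0.05 over all. Sequences beginning with C held 3.53 ± 0.579% of the counts without miR159 form 1 in shoots and 7.56 ± 0.596% in roots (SD, n = 3 each). Much of this lay in 1 family. The miR1507 sum, nearly all of it a mature sequence that begins with C, held 2.09 ± 0.533% of these counts in shoots and 5.42 ± 0.512% in roots. The share of C without miR1507 was not computed.

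The same organ contrast was measured in 3 other pairs of groups that share no library with it. Of the 105 sequences called here, 72 were called in the same direction in cra2 under satiety (68.6% of these 105 and 83.7% of the 86 called there, where 86 of 161 tested, 53.4%, passed), and 0 in the opposite direction. In A17 under deficit 64 were called in the same direction (61% of the 105 and 53.3% of the 120 called there; 66.3% of 181 tested passed) and 7 in the opposite one. In cra2 under deficit 52 were (49.5%, and 88.1% of the 59 called there; 35.8% of 165 tested passed), and 0 opposite. Called in one direction in all 4 pairs were 39 sequences, 22 higher and 17 lower in shoots. Among them were miR171 forms 2, 3 and 4 and its opposite arm 1, miR156 form 2 and its opposite arm 1, miR4414 form 1, miR160 form 2, and unassigned 2, 3, 4, 6, 7, 9 and 11.

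Where the organ difference of A17 depended on the nitrogen supply was tested as satiety minus deficit over 12 libraries: 70 of 201 sequences (34.8%) and 54 of 144 rows of the family table (37.5%; 15.3% positive, 22.2% negative) passed. miR156, higher in shoots in both, had log2 differences of 2.81 under satiety and 4.26 under deficit. For miR2089, miR390, miR162, miR166, miR1507, miR1509 and miR5232 the organ difference was more negative under satiety: miR2089 had -2.03 under satiety and 0.01 under deficit (satiety minus deficit -2.06 ± 0.32, SE; edgeR adjusted p = 1.27e-05), miR166 -1.22 under satiety and 0.24 under deficit (-1.48 ± 0.27; 0.000108) and miR1507 -1.52 under satiety and 0.60 under deficit (-2.14 ± 0.39; 0.000257). For miR398 and miR172 it was more positive under satiety, at 1.48 under satiety and 0.13 under deficit for miR398 and 1.30 under satiety and 0.18 under deficit for miR172 (1.34 ± 0.32 and 1.11 ± 0.32; edgeR adjusted p = 0.00114 and 0.00523). miR4414 did not pass this test, at 3.72 under satiety and 4.00 under deficit (-0.29 ± 0.31; edgeR adjusted p = 0.491). The split of signs among the 70 sequences was 26 positive (12.9%) and 44 negative (21.9%) with TMM, and 50 and 18 with library totals, whose medians were -0.16 and 0.36; the values named here kept their sign with the 4 scalings run, except that of miR4414.

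Between the genotypes under satiety the organ difference of A17 minus that of cra2 passed for 4 of 192 sequences (2.08%) and 2 of 140 rows of the family table (1.43%), all with a negative sign. The SE of this term was uneven, at 0.49 for miR156, 0.59 for miR2111 and 0.21 for miR396. Few calls therefore do not show that the other organ differences were equal in both genotypes. miR5559 had a log2 difference, shoot minus root, of 2.96 in A17 and 5.36 in cra2 (A17 minus cra2 -2.29 ± 0.29, SE; edgeR adjusted p = 4.25e-07). The other sequences, named after their values were seen, were the opposite arm of miR4414, miR172 form 2 (-1.25 in A17 and 0.67 in cra2) and an unassigned sequence, aCAAAGACattggaaggctta (0.21 in A17 and 3.68 in cra2). The miR4414 opposite arm had 229, 181 and 283 counts in cra2 shoots, against 0, 0 and 0 counts in cra2 roots, at least 80.8-fold higher per library total (floor of 3 counts over the 3 roots), and 98, 130 and 223 counts in A17 shoots, against 2, 7 and 10 counts in A17 roots. DESeq2 called 8 sequences, and without A17 shoot replicate 3 edgeR called 10 sequences and 19 rows of the family table; without root replicate 2 it called 7 rows.

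**Figure D5:**
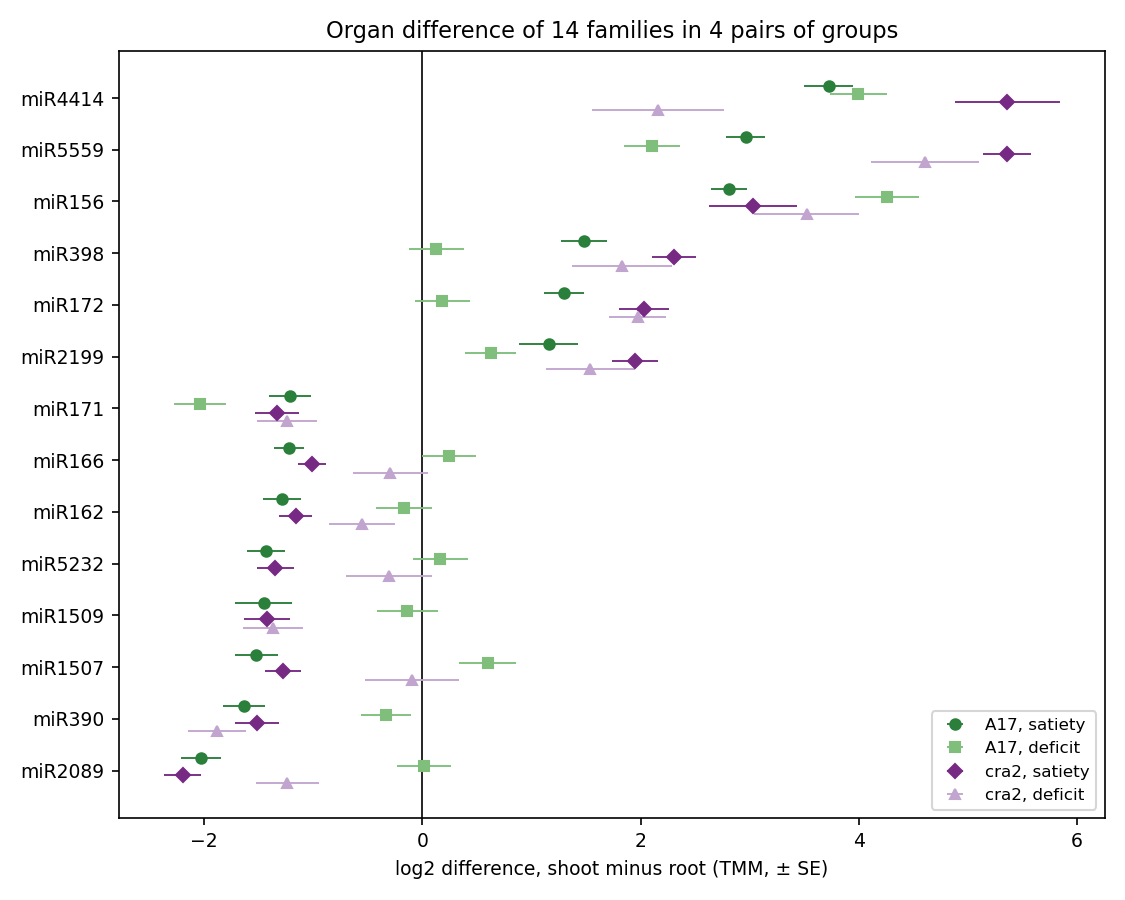
Log2 difference, shoot minus root (x axis, TMM, ± SE), of the 14 families that were called in one direction with all 6 scalings in A17 under satiety (y axis), in 4 pairs of groups that share no library. miR4414, miR5559, miR156, miR2199, miR172 and miR398 lie right of 0 and miR171, miR162, miR390 and miR1509 left of 0 in all 4 pairs. In A17 under deficit, however, miR172 (0.18), miR398 (0.13), miR162 (-0.17) and miR1509 (-0.14) are within 1 SE of 0. miR1507, miR166, miR5232 and miR2089 lie left of 0 under satiety in both genotypes and in A17 under deficit at 0.60, 0.24, 0.16 and 0.012, the last 3 within 1 SE of 0. In cra2 under deficit they lie at -0.09, -0.30, -0.30 and -1.24, all but miR2089 within 1 SE of 0.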

How the data were processed

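Small RNA of 24 samples was extracted with miRNeasy columns and made into libraries with the NEXTFLEX small RNA kit, per the labels' protocols; the submitters' processing notes name cutadapt. The authors deposited, per library, whole-number read counts for one list of 427 sequences; the aligner, build, mismatch rule and origin of the list were not stated. Capture by adapter ligation differs between sequences and was not measured, so levels of different sequences are read counts, not molecules.

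From the deposited counts, edgeR 4.0.16 (R 4.3.3) fitted the 6 libraries with TMM scaling, filterByExpr at a minimum count of 10, and the quasi-likelihood test with Benjamini-Hochberg adjustment over all tested sequences (threshold 0.05), and again on counts summed by family with the scaling of the sequence table. Differences between pairs of groups were tested as interaction terms over 12 libraries. Alternatives were other scalings, DESeq2 1.42.0, other filters, wider fits, a replicate block and leaving out each library. The fit was also run on simulated counts with known changes, whose outcome is not given here and is not used as support. Where an organ had no counts, bounds use a floor of 3 counts over its 3 libraries (counting error only). Replicates differed by more than counting noise (chi-square per degree of freedom 37.3 to 131.6), so no library was a copy of another.

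Families were assigned by hand to 113 sequences after the files were seen, and the lists and members were chosen with earlier results of these data known. Named sequences are the 5 most abundant per organ, up to 12 per direction with the largest called difference and no overlap, and those with at least 10 counts in each library of one organ and 0 in the other; listed families are named whatever their p. Genome positions were not used here.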

Additional observations from a re-analysis of the deposited data

Results flagged for a closer look

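The differences here were tested as interaction terms, and each passed edgeR's quasi-likelihood test at an adjusted p under 0.05. They are given as values only, and their causes were not tested.

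Satiety minus deficit of the A17 organ difference (log2, shoot minus root) was negative for miR1507 (-2.14), miR2089 (-2.06), miR168 (-1.93), miR1510 (-1.61), miR5232 (-1.61), miR166 (-1.48), miR156 (-1.46), miR2118 (-1.46), miR1509 (-1.32), miR390 (-1.31), miR162 (-1.13), miR167 (-0.90) and miR396 (-0.84). It was positive for miR160 (1.75), miR319 (1.44), miR398 (1.34), miR5213 (1.22), miR172 (1.11), miR5559 (0.85), miR171 (0.81) and miR164 (0.71). Among named sequences it was negative for miR396 form 1 (-1.97), the miR4414 opposite arm (-1.88), miR156 form 2 (-1.79), miR166 form 1 (-1.66) and the miR156 opposite arm 1 (-1.62), and positive for miR171 form 6 (2.31) and miR5213 form 1 (1.22). All these signs held with the 4 scalings run, but not all calls did.

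With library totals the call was lost for miR1509 (-0.77, edgeR adjusted p = 0.104), miR162 (-0.61, 0.154), miR2118 (-0.93, 0.0596), the miR156 opposite arm 1 (-1.09, 0.0927), miR167 (-0.36, 0.344), miR396 (-0.28, 0.528) and the miR4414 opposite arm (-1.39, 0.145). For the last 3 it was also lost with TMM without miR159 form 1 (-0.62, -0.55 and -1.58). With 1 A17 satiety library left out, miR164 passed in 1 of 6 fits, without shoot replicate 2, and gave 0.66 to 0.73 in the others. miR171 was lost without shoot replicate 1 (0.67), root replicate 2 (0.76) or root replicate 3 (0.72), and miR5559 without shoot replicate 3 (0.74), root replicate 1 (0.78) or root replicate 2 (0.75). miR167 was lost without shoot replicate 2 (-0.73), the miR156 opposite arm 1 without root replicate 3 (-1.36) and miR171 form 6 without root replicate 2 (1.87). The miR4414 opposite arm was lost without shoot replicate 1 (-1.69) or 2 (-1.75) and without root replicate 2 (-1.77) or 3 (-1.48).

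A17 minus cra2 of the organ difference under satiety was negative for miR5559 (-2.29) and for the miR4414 opposite arm (-6.49). The value for the miR4414 opposite arm was fitted against 0 counts in cra2 roots and is no measure of size; both calls held in these alternatives.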

How the results depend on the processing

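The number of sequences called was 104 with DESeq2 and 98 to 109 with 1 library left out, against 105, and that of family-table rows 69 to 75 with 1 library left out, against 76. With library totals 117 sequences and 83 rows were called, with upper-quartile scaling 119 and 82, and with totals without miR159 form 1 110 and 72. The direction of calls moved too: 43.8% of calls were higher in shoots with TMM, 28.2% with library totals, 70.6% with upper-quartile scaling and 51.8% with totals without miR159 form 1.

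Over all alternatives, 521 values of named families and 493 of named sequences kept their direction and side of the threshold; 39 and 0 were no longer past it, 22 and 5 came past it, and 23 and 14 changed sign. Sign changes, with the cause not tested beyond the shift of scale, were as follows. With library totals the log2 difference was -0.20 for miR1510, -0.56 for miR2086, -0.16 for miR2111, -0.12 for miR2118, -0.26 for miR2643, -0.53 for miR396, -0.34 for miR396 form 1 and -0.18 for miR408. With upper-quartile scaling it was 0.51 for miR164, 0.19 for miR168, 0.55 for miR5213 and 0.40 for miR396 form 2. With totals without miR159 form 1 it was 0.11 for miR164, 0.16 for miR5213 and 0.018 for miR396 form 2. With all 24 libraries in the fit it was 0.17 for miR164, 0.20 for miR5213 and 0.047 for miR396 form 2. miR5213 gave 0.028 with no filter and 0.024 with at least 10 CPM in 3 libraries. With 1 library left out, miR164 gave -0.10 to 0.024, miR2086 -0.041 to 0.17, miR5213 -0.18 to 0.17 and miR396 form 2 -0.34 to 0.082. None of these passed in TMM except miR1510, miR2118 and miR168.

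A17 minus cra2 passed for 8 sequences with DESeq2, and for 4 rows of the family table each with RLE scaling, DESeq2 and TMM without miR159 form 1. With 1 A17 library left out it passed for 4 to 10 sequences and 2 to 19 rows.

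Without miR159 form 1 the share difference, shoot minus root, was 4.98 percentage points for 20 bases, -4.14 for 21, -0.978 for 22 and 0.149 for 24. Without any family sequence it was 0.160, -1.70, -0.283 and 2.09 in the same order. For 24 bases, an alternative chosen after seeing the data left out both miR159 form 1 and unassigned 4 and gave 0.0326. The mature-arm share of miR396 differed by -0.591 to 0.791 percentage points and that of miR4414 by -2.66 to 0.952 with 1 library left out.

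Libraries of equal replicate number did not deviate together throughout (correlations 0.203, -0.0657 and 0.373 for numbers 1, 2 and 3), and shoot replicate 1 correlated more with root replicate 2 (0.272), so the numbers were not taken as a pairing. The value for number 3 was the highest of all pairs, and pairs of unequal number ran from -0.446 to 0.272. Whether equal numbers came from the same plants cannot be told from so few pairs. With the replicate block 115 sequences and 78 family rows were called. For satiety minus deficit the block gave 87 sequences, against 70, and for A17 minus cra2 it gave 4. The rare families miR393, miR395 and miR397 had too few counts to test.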
